A study of Mus musculus with 6 samples.

Results

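The enzymes that build the sugar chains of mucins were followed in RNA of mouse large intestine. They were taken by symbol from a table of 35434 genes: the families Galnt, C1galt1, Gcnt, B3gnt, B3galt, B4galt, B4galnt, Fut (Fut7 left out), St3gal, St6gal with St6galnac, and Nxpe. The patterns found 78 genes. Not every member is an enzyme of mucin chains: Galnt6os is an antisense RNA, C1galt1c1 is a chaperone, and the Nxpe genes are described below only by their domains and a human relative. The levels did not enter the choice.

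Mucins are secreted or membrane proteins that carry dense sugar chains on serine and threonine. Galnt enzymes place the first N-acetylgalactosamine, which C1galt1 turns into core 1 and B3gnt6 into core 3. Gcnt enzymes branch the cores, B3gnt and galactosyltransferases lengthen the chains, and fucose, sialic acid or a further N-acetylgalactosamine caps them. In the colon these chains hold water in the mucus and are food and docking sites for bacteria. Many of the same enzymes also act on N-glycans and glycolipids.

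The tissue came from mice with inflammatory bowel disease (IBD) that received a transfer of regulatory T cells (Tregs), named Lenv-Tregs in some mice and Ctrl-Tregs in others; what Lenv stands for is not spelled out. The 6 libraries are titled int 3 and int 2, with 3 each, and the labels do not say which title stands for which transfer. All groups share the disease and the tissue. Strain, sex, age, the disease model and the dose are not given in the sources used here, and neither is whether each library is 1 animal. The p-values therefore weigh the difference between the groups against the spread between libraries, which may not be the spread between animals.

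Values are FPKM, fragments scaled to gene length and to library depth, and stand within a group in the order of replicates 1, 2 and 3. Depth was even, at 34.0 to 35.1 M fragments a library (M, 1e6). The posterior homeobox gene Hoxb13, the only listed marker of the distal large intestine, was at 146, 16.4 and 267 FPKM in int 3. It was at 287 ± 1.6 FPKM in int 2 (SD, n = 3). Of the 6 listed small intestinal genes, Apoa4, Defa24 and Sis stood at or near 0. The ileal gene Fabp6 had 30.2, 3.40 and 52.2 FPKM in int 3 and 8.04 ± 1.65 FPKM in int 2. Slc5a1 had 25.2, 20.7 and 28.7 FPKM in int 3 and 31.8 ± 0.892 FPKM in int 2. Alpi had 2.11, 4.33 and 0.0244 FPKM in int 3 and 0.283 ± 0.0905 FPKM in int 2. Markers of the epithelium as a whole summed to 4180 to 5260 FPKM in int 3 and 4650 to 4690 FPKM in int 2, and 0 of the 8 passed with limma (0 at an unadjusted p under 0.05 and 0 with voom). The int 3 libraries lay far apart and the int 2 libraries close together: the median range over the tested genes was 0.26 in int 3 and 0.09 in int 2 on the log2(FPKM + 1) scale. Int 3-1 lay between int 3-2 and int 3-3 for 73.5% of the tested genes. It was near the middle of the other 2 for Hoxb13 and for Muc2, at 274 FPKM against 467 and 102 FPKM. The same held for members far apart within int 3. Examples are B3gnt6, at 8.39 FPKM against 15.9 and 0.783 FPKM, and B3gnt7, at 167 FPKM against 30.6 and 295 FPKM. How many genes did so was not counted. Whether the libraries of a group are independent samples is not given. The SD, SE and p-values at n = 3 treat them as such. In int 2 the fragments recovered for Nxpe2 were 9633, 9723 and 9609, a spread no wider than counting error. For other members, such as St6galnac2 at 2852, 2598 and 2699 fragments, it was wider. Small p-values may therefore rest on an int 2 spread narrower than that between animals.

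Among the 78 members 57 reached FPKM 1 in at least 3 libraries and were tested, and 13 of them passed (22.8%), against 15.3% of all 12525 tested genes. In int 3 the fucosyltransferase Fut2, the type 1 chain enzyme B3galt5, the core 1 synthase C1galt1 and its extender B3gnt3 were higher. So were the galactosyltransferase B4galt1 and the Galnt family members Galnt6 and Galnt18. The sialyltransferases St6gal1, St6galnac2 and St6galnac4, the Lewis x enzyme Fut9, the polylactosamine enzyme B3gnt8 and Nxpe2 were lower. In all 13 the groups did not overlap, which a call from these same 3 libraries a group nearly brings with it, so it adds no support. These are 7 of 57 higher, where 8.64% of all tested genes were, and 6 of 57 lower, where 6.7% were. The median log2 change of the tested members was 0.12, and that of all tested genes 0.03. The groups did not overlap for 30 of the 57 (52.6%, against 40.4% of all tested genes), with int 3 above in 19 (22.4% of all) and below in 11 (17.9% of all). Log2 changes are int 3 minus int 2 on log2(FPKM + 1), a scale that understates the change of low genes, and adjusted p-values come from limma over all tested genes.

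Fut2, B3galt5 and Nxpe2 passed in all 16 alternative analyses. The other 10 passed in 7 to 12 of the 15 or 16 alternatives that tested them, and lost the threshold when int 3-1 or any 1 int 2 library was left out, where 3 members passed (5.26%, against 4.91% to 5.13% of all tested genes). Without int 3-2 the count was 17 (29.8%, against 21% of all), and without int 3-3 it was 38 (66.7%, against 39.2% of all). A lower level in a whole tissue can mean fewer cells of a type or less RNA per cell, which cannot be told apart here.

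**Figure D1:**
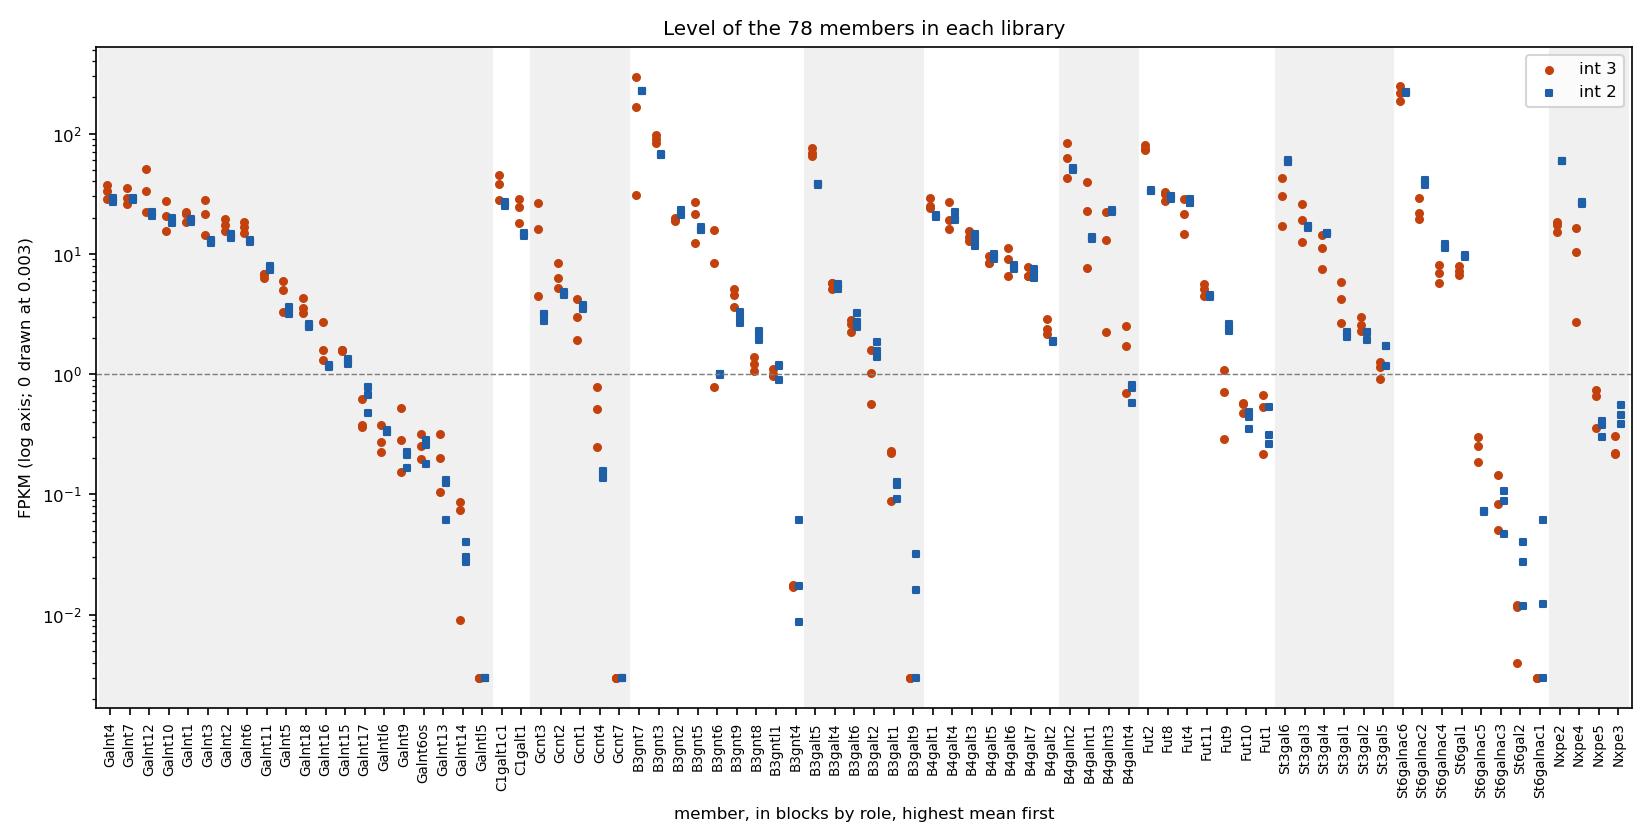
FPKM of each member (log axis, 0 drawn at 0.003) in the 3 int 3 libraries (circles) and the 3 int 2 libraries (squares), in blocks by role; the dashed line is FPKM 1. St6galnac6 lies between 187 and 248 FPKM in all 6 libraries, B3gnt7 is at 30.6 FPKM in int 3-2, and 20 members stay under 1 in every library.

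**Figure D2:**
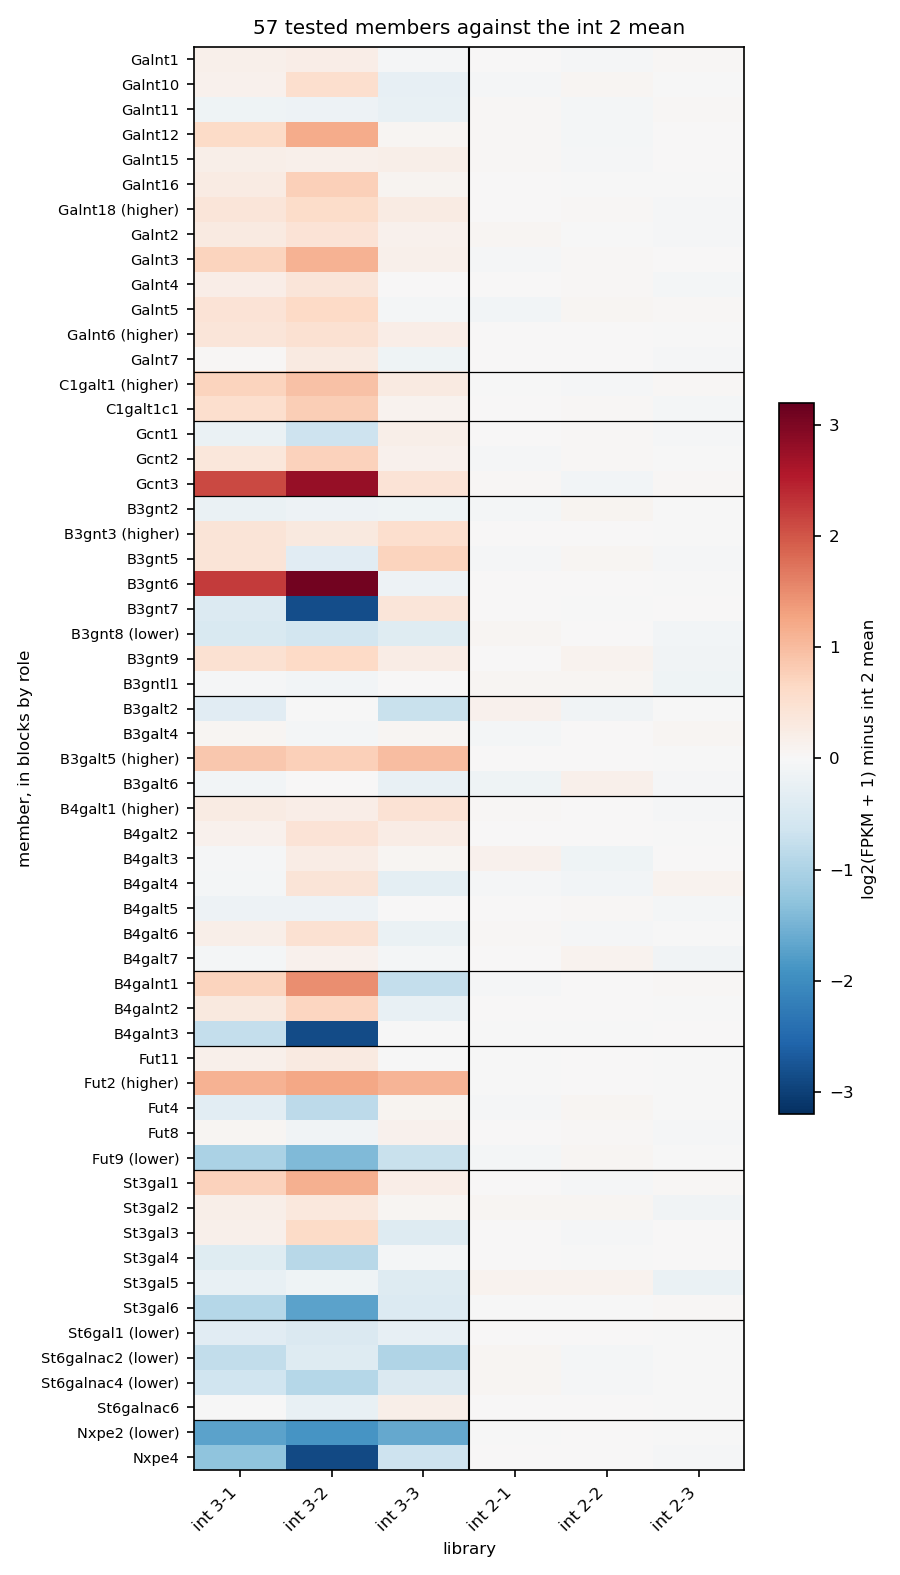
Difference of log2(FPKM + 1) from the int 2 mean for the 57 tested members (rows, in blocks by role) in each library (columns); members past the threshold are marked higher or lower. The 3 int 2 columns are pale, int 3-2 has the deepest colours, and int 3-3 is often close to int 2.

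The members spanned a wide range of levels. St6galnac6, a sialyltransferase that acts on glycolipids and on Lewis type chains, averaged 218 ± 30.6 FPKM in int 3 and 219 ± 1.86 FPKM in int 2 (SD, n = 3 each). B3gnt7, which adds N-acetylglucosamine to sulfated lactosamine chains, averaged 164 ± 132 FPKM in int 3, where int 3-2 was at 30.6 FPKM, and 226 ± 2.05 FPKM in int 2. It was thus above St6galnac6 in int 3-3 and in int 2, and below it in int 3-1 and int 3-2. In all, 31 members had a mean over 10 FPKM. The 21 members not tested were Galnt6os, Galnt9, Galnt13, Galnt14, Galnt17, Galntl5, Galntl6, Gcnt4, Gcnt7, B3gnt4, B3galt1, B3galt9, B4galnt4, Fut1, Fut10, St6gal2, St6galnac1, St6galnac3, St6galnac5, Nxpe3 and Nxpe5. All but B4galnt4 stayed under 1 FPKM in every library, and Galntl5 and Gcnt7 were listed at 0 in all 6. Every tested member reached FPKM 1 in at least 1 library of each group. Fut9 had 0.706, 0.287 and 1.08 FPKM in int 3 and 2.28, 2.60 and 2.40 FPKM in int 2. Its int 2 values alone thus met the filter, and its call as lower is not independent of that.

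The initiating Galnt family had 20 members in the table and 13 tested, of which 2 were higher and 11 did not pass. The share called was 15.4%, near the 15.3% of all tested genes. At an unadjusted p under 0.05 there were 5 higher and 1 lower, and with voom 1 was higher. Galnt6 had 16.8, 18.3 and 14.8 FPKM in int 3 and 12.7, 12.9 and 12.5 FPKM in int 2 (log2 change 0.36, SE 0.08, adjusted p = 0.034; 0.00332 to 0.137 over the alternatives). Galnt18 had 3.58, 4.33 and 3.19 FPKM in int 3 and 2.53, 2.60 and 2.45 FPKM in int 2 (0.41, SE 0.10, adjusted p = 0.041; 0.00831 to 0.152). In both genes every int 3 library lay above every int 2 library, and int 3-2 was the highest. Galnt6 shares exon bases with its antisense RNA Galnt6os, which stood at 0.255 ± 0.0596 FPKM in int 3 and 0.240 ± 0.0530 FPKM in int 2.

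Galnt4, which adds to partly glycosylated peptides, stood at 33.1, 37.1 and 28.3 FPKM in int 3 and 28.5, 29.0 and 27.2 FPKM in int 2 (adjusted p = 0.21). Galnt7, which prefers peptides that already carry N-acetylgalactosamine, averaged 30.1 ± 4.73 FPKM in int 3 and 28.7 ± 0.479 FPKM in int 2 (SD, n = 3 each). Its log2 change of 0.06 turned to -0.06 without int 3-2. Galnt12, an initiator typical of the digestive tract, had 33.5, 50.6 and 22.5 FPKM in int 3 and 22.3, 20.7 and 21.7 FPKM in int 2 (0.62, SE 0.27, adjusted p = 0.17). Galnt3 had 21.3, 28.3 and 14.2 FPKM in int 3 and 12.3, 13 and 12.7 FPKM in int 2 (0.66, SE 0.22, adjusted p = 0.10). For both, the int 3 libraries lay above int 2, with int 3-3 close to it, and the spread within int 3 was too wide for the test. The summed level of the family was 213, 262 and 172 FPKM in int 3 and 174, 174 and 172 FPKM in int 2.

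Core 1 synthesis needs the galactosyltransferase C1galt1 and its chaperone C1galt1c1, also called Cosmc, without which the enzyme is not folded. C1galt1 had 24.4, 28.5 and 18.1 FPKM in int 3 and 14.5, 14.1 and 15 FPKM in int 2 (log2 change 0.64, SE 0.15, adjusted p = 0.04; 0.00113 to 0.145 over the alternatives). The chaperone had 38.2, 45.3 and 28.0 FPKM in int 3 and 26.2, 26.9 and 25.1 FPKM in int 2 (0.47, SE 0.16, adjusted p = 0.11). The groups of both genes did not overlap, and both had the order int 3-2, int 3-1, int 3-3. The ratio of enzyme to chaperone was 0.638, 0.629 and 0.645 in int 3 and 0.555, 0.524 and 0.597 in int 2, so it was even among the int 3 libraries although both levels differed.

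The promoter of C1galt1 is shown beside the promoters of Nxpe2, Nxpe4 and St6galnac4 further on, since these genes were the changed members with the largest log2 change and 1 annotated start in the sequence table, with Nxpe4 added as the neighbour of Nxpe2. Sequences are RefSeq windows of build GRCm38.p6, from 250 bases before to 50 after the start, while the study's table was made on GRCm39. Of the members 58 had a window. B3galt5 had 3 and was not printed. Capitals would mark a match to any of the motifs searched on both strands. The window of C1galt1, chr6:7844974-7845273 on the + strand, is rich in G and C (82.7%, against a median of 52.7% over all windows), with 52 CpG pairs (median 7) and no match.
C1galt1: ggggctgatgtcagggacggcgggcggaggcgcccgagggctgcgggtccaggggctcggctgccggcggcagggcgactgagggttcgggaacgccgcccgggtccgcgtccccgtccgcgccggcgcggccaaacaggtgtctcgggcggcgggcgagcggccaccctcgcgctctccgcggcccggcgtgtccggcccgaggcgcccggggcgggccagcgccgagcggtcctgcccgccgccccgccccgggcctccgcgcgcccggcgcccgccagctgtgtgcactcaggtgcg

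Branching enzymes were uneven. Gcnt3, the mucin type branching enzyme that makes core 2 and core 4, had 16.2, 26.6 and 4.45 FPKM in int 3 and 3.15, 2.77 and 3.14 FPKM in int 2. All 3 int 3 libraries were higher than int 2, by 2.10, 2.78 and 0.44 on the log2 scale, yet the test was not passed (1.77, SE 0.56, adjusted p = 0.083). Gcnt1, the core 2 enzyme that leukocytes also use, lay the other way in int 3-2, with 2.96, 1.93 and 4.24 FPKM in int 3 and 3.63, 3.74 and 3.47 FPKM in int 2. Gcnt3 thereby made up 62.5%, 70.6% and 31.5% of the family's summed FPKM in int 3 and 27.6%, 24.2% and 27.6% in int 2. Gcnt2, the I branching enzyme, had 6.27, 8.37 and 5.20 FPKM in int 3 and 4.51, 4.83 and 4.60 FPKM in int 2 (adjusted p = 0.12). The family has 5 members, of which 3 were tested and 0 passed with limma (2 higher at an unadjusted p under 0.05, and 0 with voom). Gcnt4 was below the filter, at 0.516 ± 0.267 FPKM in int 3 and 0.149 ± 0.0097 FPKM in int 2, with 130, 196 and 64 fragments in int 3 and 39, 35 and 39 fragments in int 2.

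The family that adds N-acetylglucosamine had 8 tested members of 9, of which 1 was higher and 1 lower (25% called, against 15.3% of all tested genes). B3gnt3, which extends core 1, had 90, 83.6 and 98.0 FPKM in int 3 and 66.9, 67.0 and 66.7 FPKM in int 2 (log2 change 0.43, SE 0.07, adjusted p = 0.0096; 0.00164 to 0.058 over the alternatives). Int 3-3 was its highest library. B3gnt8, which acts with B3gnt2 on polylactosamine, had 1.22, 1.07 and 1.4 FPKM in int 3 and 2.28, 2.16 and 1.93 FPKM in int 2 (-0.49, SE 0.09, adjusted p = 0.016; 0.00597 to 0.0853), with -0.74 at a pseudocount of 0.1 and -0.79 with voom. The groups of both did not overlap.

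B3gnt6, the core 3 synthase of colonic mucin, had 8.39, 15.9 and 0.783 FPKM in int 3 and 0.998, 1.01 and 0.989 FPKM in int 2 (1.72, SE 0.78, adjusted p = 0.19). These were 678, 1284 and 65 fragments in int 3 against 81, 82 and 80 in int 2. Int 3-1 and int 3-2 lay far above int 2, and int 3-3 just below it. The ratio of B3gnt6 to C1galt1, the enzymes that compete for the first sugar, was 0.345, 0.560 and 0.0434 in int 3 and 0.0688, 0.0715 and 0.0660 in int 2. B3gnt7 showed the opposite order, with 167, 30.6 and 295 FPKM in int 3 and 228, 224 and 227 FPKM in int 2 (-0.97, SE 0.77, adjusted p = 0.43). Its share of the family's summed FPKM was 53.5%, 18.1% and 66.1% in int 3 and 67.2%, 66.1% and 67.3% in int 2. Without int 3-3, B3gnt6 passed (adjusted p = 0.000931 with limma, where the alternatives ranged up to 0.406). In that fit 38 tested members (66.7%) and 39.2% of all tested genes passed, so passing there is not particular to B3gnt6.

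Of the galactosyltransferases, B3galt5 was higher in every int 3 library. It makes type 1 chains, the base of Lewis a and Lewis b structures, and had 69.1, 65.1 and 75.7 FPKM in int 3 and 38.0, 38.0 and 37.4 FPKM in int 2 (log2 change 0.87, SE 0.06, adjusted p = 0.00089; 0.000223 to 0.0145 over the alternatives). It supplied 87.9%, 87.0% and 89.8% of its family's summed FPKM in int 3 and 79.9%, 78.6% and 78.8% in int 2. The other tested members of that family were B3galt2, B3galt4 and B3galt6, and 0 of these 3 passed with limma (0 at an unadjusted p under 0.05 and 0 with voom). B4galt1, the main lactosamine synthase, had 24.9, 24.2 and 29.0 FPKM in int 3 and 21.1, 20.8 and 20.3 FPKM in int 2 (0.31, SE 0.08, adjusted p = 0.042; 0.0133 to 0.158). It no longer passed with median-of-ratios, quantile or epithelial scaling. All 7 B4galt members were tested and the other 6 did not pass, with log2 changes of -0.10 for B4galt5 to 0.26 for B4galt2. The share of that family called was 14.3%, near the 15.3% of all tested genes.

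The B4galnt family, which adds N-acetylgalactosamine to chain ends, had 3 tested members of 4 and 0 that passed with limma (0 at an unadjusted p under 0.05 and 0 with voom). Its spread within int 3 was the widest of the families, with a median range of 2.24 on the log2 scale, against 0.43 over all tested members. B4galnt2, the maker of the Sda and Cad antigen on colonic mucin, had 63.1, 82.8 and 43.0 FPKM in int 3 and 50.9, 51.5 and 50 FPKM in int 2 (0.25, SE 0.22, adjusted p = 0.46). B4galnt1, the synthase of the gangliosides GM2 and GD2, had 22.8, 39.7 and 7.59 FPKM in int 3 and 13.3, 13.6 and 13.9 FPKM in int 2 (0.47, SE 0.53, adjusted p = 0.56). B4galnt3, which makes the LacdiNAc ending, had 13, 2.25 and 22.4 FPKM in int 3 and 22.3, 22.6 and 23.1 FPKM in int 2 (-1.21, SE 0.68, adjusted p = 0.27). B4galnt1 and B4galnt2 were highest in int 3-2 and under int 2 in int 3-3, while B4galnt3 was near int 2 in int 3-3 and lowest in int 3-2. The ratio of B4galnt2 to B4galnt3 was therefore 4.84, 36.8 and 1.92 in int 3 and 2.28, 2.28 and 2.17 in int 2. B4galnt1 shares exon bases with a gene on the opposite strand, Slc26a10, and B4galnt4, below the filter, had 1.73, 2.49 and 0.697 FPKM in int 3 and 0.816, 0.773 and 0.580 FPKM in int 2.

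**Figure D3:**
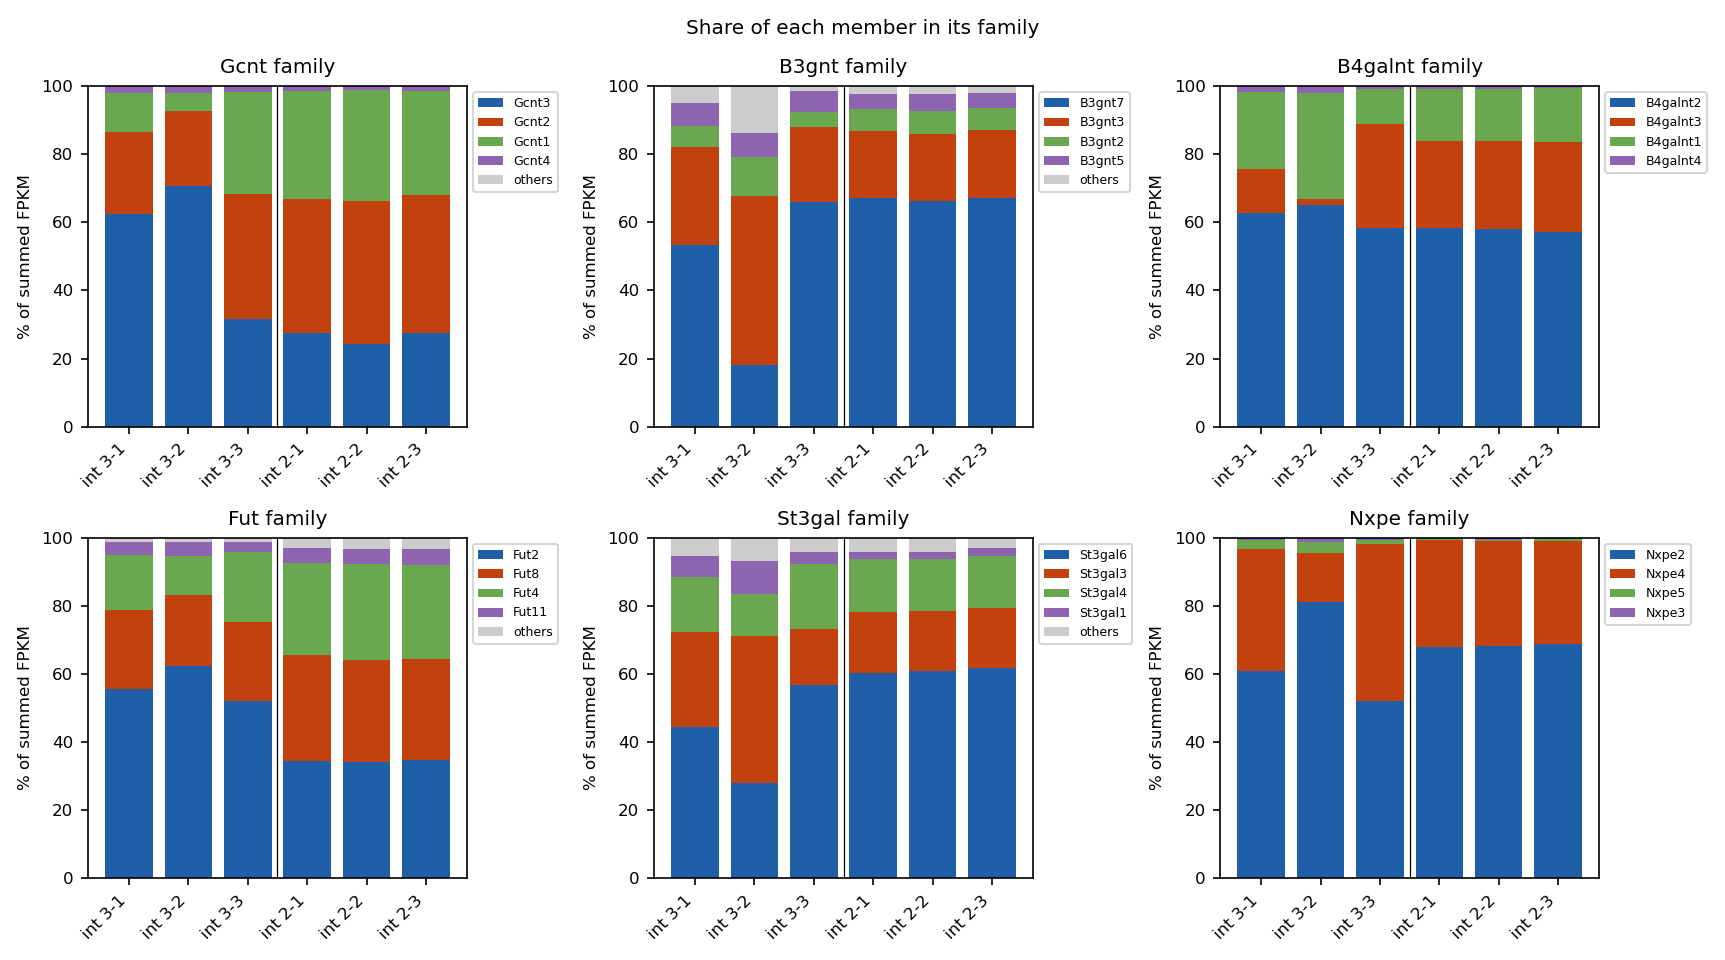
Share of each member in the summed FPKM of its family for 6 families (% of summed FPKM, stacked bars, the 4 largest members and the others) in the 3 int 3 libraries (left) and the 3 int 2 libraries (right). The int 2 bars are alike, Fut2 takes over 50% of its family in every int 3 library, and B3gnt7 and B4galnt3 shrink in int 3-2.

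Fut2 had the largest log2 change among the members that were higher. It adds the terminal alpha-linked fucose of the H antigen to epithelial glycans, the secretor trait in humans, and stood at 73.9, 80.9 and 73.5 FPKM in int 3 and 33.6, 34.3 and 33.4 FPKM in int 2 (log2 change 1.15, SE 0.05, adjusted p = 0.00019; 7.11e-05 to 0.00732 over the alternatives). The int 3 libraries lay within 0.14 of each other on the log2 scale, including int 3-2 and int 3-3, which differed widely for other members. Fut2 supplied 55.4%, 62.2% and 52% of the summed FPKM of the fucosyltransferases in int 3 and 34.5%, 34.0% and 34.6% in int 2. Fut1, which makes the same linkage mainly outside the gut epithelium, stood at 0.473 ± 0.232 FPKM in int 3 and 0.369 ± 0.144 FPKM in int 2, below the filter.

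The other fucosyltransferases did not follow Fut2. Fut9, which makes the Lewis x structure, had 0.706, 0.287 and 1.08 FPKM in int 3 and 2.28, 2.60 and 2.40 FPKM in int 2 (-1.05, SE 0.17, adjusted p = 0.013; 0.00189 to 0.0688), so it was lower in every int 3 library. Its log2 change was -1.82 with a pseudocount of 0.1 and -2.0 with voom on whole fragments. Fut4, another Lewis x enzyme, had 21.3, 14.7 and 28.8 FPKM in int 3 and 26.3, 28.4 and 26.7 FPKM in int 2, and the groups overlapped (adjusted p = 0.30). Fut8, which fucosylates the core of N-glycans, averaged 30.4 ± 2.82 FPKM in int 3 and 29.7 ± 0.891 FPKM in int 2 (0.03, SE 0.08, adjusted p = 0.81). The sign of that change turned with median-of-ratios and quantile scaling and without int 3-3. Of 7 family members 5 were tested.

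Genes of fucose supply were read from a list of 25 genes of sugar nucleotide supply and transport, of which 23 were tested, 4 were higher and the other 19 did not pass. The share called was 17.4%, near the 15.3% of all tested genes. The list and the other lists below were written with earlier results of these data known. Gmds, the first enzyme of GDP-fucose synthesis, had 196, 218 and 181 FPKM in int 3 and 137 ± 1.25 FPKM in int 2 (0.52, adjusted p = 0.0077). Slc35c1, which carries GDP-fucose into the Golgi, had 65.9, 71.8 and 64.2 FPKM in int 3 and 52.5 ± 0.803 FPKM in int 2 (0.35, adjusted p = 0.011). The other 2 were Ugp2, which makes UDP-glucose, at 0.21 (adjusted p = 0.043), and Uap1l1 at 0.26 (adjusted p = 0.047). Gfus, the enzyme after Gmds, did not pass (0.11, adjusted p = 0.26), and neither did the sialic acid genes Gne (-0.05) and Cmas (0.13). The median of the list was 0.12.

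**Figure D4:**
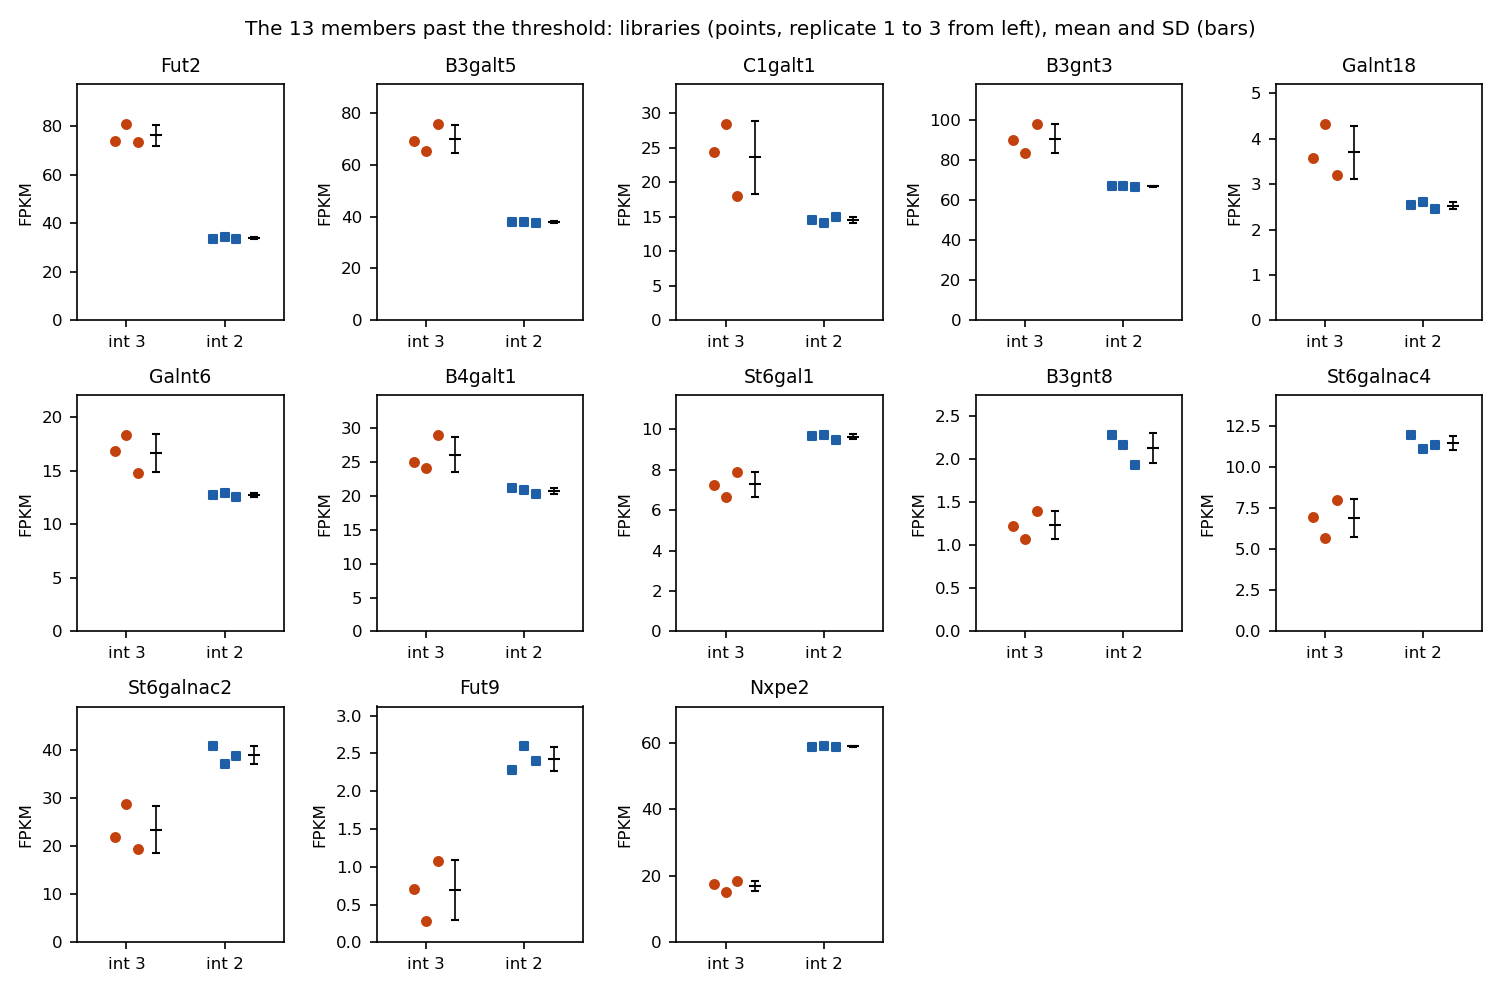
FPKM of the 13 members past the threshold in the 3 int 3 libraries (circles) and the 3 int 2 libraries (squares), with mean and SD (bars), from the largest rise to the largest fall. In each of the 13 panels the groups do not overlap, as the calls nearly imply, and for Fut2, B3galt5 and Nxpe2 the int 3 points lie close together.

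The alpha 2,3 sialyltransferases were all tested, and 0 of 6 passed with limma (1 higher and 1 lower at an unadjusted p under 0.05, and 0 with voom). St3gal6, which sialylates lactosamine, had 30.4, 17.1 and 42.5 FPKM in int 3 and 57.5, 57.6 and 60.2 FPKM in int 2 (log2 change -1.03, SE 0.30, adjusted p = 0.067). St3gal4, with a like function, had 11.2, 7.48 and 14.2 FPKM in int 3 and 14.9, 14.5 and 15 FPKM in int 2 (-0.44, adjusted p = 0.19). St3gal1, which sialylates core 1, had 4.21, 5.85 and 2.65 FPKM in int 3 and 2.14, 2.04 and 2.23 FPKM in int 2 (0.69, adjusted p = 0.083). All int 3 libraries were below int 2 for the first pair and above it for St3gal1, with int 3-2 farthest away each time. The ratio of St3gal1 to St3gal6 was 0.138, 0.343 and 0.0624 in int 3 and 0.0372, 0.0354 and 0.0370 in int 2. St3gal6 shares 1603 exon bases with Dcbld2 on the opposite strand in an annotation of build GRCm38, where 24 of 77 members share exon bases with another gene. Strand handling is not given, so reads of such pairs may be mixed.

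Of the 8 alpha 2,6 sialyltransferases 4 were tested, of which 3 were lower (75%, where 6.7% of all tested genes were lower). St6galnac2, which sialylates core 1 O-glycans, had 22.0, 28.9 and 19.5 FPKM in int 3 and 40.9, 37.1 and 38.9 FPKM in int 2 (-0.73, SE 0.14, adjusted p = 0.02; 0.000607 to 0.0925 over the alternatives). St6galnac4, which adds a second sialic acid to sialylated core 1, had 7, 5.68 and 8.02 FPKM in int 3 and 12, 11.1 and 11.4 FPKM in int 2 (-0.67, SE 0.11, adjusted p = 0.013; 0.00221 to 0.0716). Its neighbour in the genome, St6galnac6, did not pass, at 218, 187 and 248 FPKM in int 3 and 221, 220 and 217 FPKM in int 2 (-0.02, SE 0.10, adjusted p = 0.91, with a positive sign in TPM and without int 3-2). The ratio of St6galnac6 to St6galnac4 was 31.2, 32.9 and 31.0 in int 3 and 18.4, 19.8 and 19.1 in int 2.

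St6galnac1, the sialyl-Tn synthase and the genomic neighbour of St6galnac2, was at the limit of detection. It had 0 fragments in each int 3 library and 1, 0 and 5 fragments in int 2, where a count of 0 allows up to 3. The window of St6galnac4, chr2:32586828-32587127 on the + strand, has 65.7% G and C with 23 CpG pairs, and no match to the motifs below.
St6galnac4: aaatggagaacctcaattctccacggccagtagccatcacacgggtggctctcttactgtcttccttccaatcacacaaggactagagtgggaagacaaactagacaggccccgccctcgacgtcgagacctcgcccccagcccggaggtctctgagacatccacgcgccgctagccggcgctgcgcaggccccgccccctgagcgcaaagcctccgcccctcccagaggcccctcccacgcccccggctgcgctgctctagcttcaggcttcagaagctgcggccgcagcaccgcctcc

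St6gal1 adds sialic acid to N-glycans and is also a B cell gene. It had 7.25, 6.66 and 7.91 FPKM in int 3 and 9.68, 9.73 and 9.48 FPKM in int 2 (-0.36, SE 0.07, adjusted p = 0.02; 0.00411 to 0.0967). B cell markers were also lower, 7 of 7 (6.7% of all tested genes were lower), with a median log2 change of -2.46. Their summed level was 26.4, 4.78 and 43.0 FPKM in int 3 and 156, 158 and 152 FPKM in int 2. Within int 3, int 3-2 was lowest and int 3-3 highest in St6gal1, in the B cell sum, in B3gnt3 and in B3galt5. The part of B cells in the fall of St6gal1 was not tested.

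The Nxpe genes encode proteins with a neurexophilin and an esterase-like domain, and in humans the relative NXPE1 acts in the O-acetylation of mucin sialic acid. Among the members that passed, Nxpe2 had the largest fall on log2(FPKM + 1) with all libraries; with a pseudocount of 0.1 (-1.79) and with voom (-1.8) that of Fut9 was larger. Nxpe2 had 17.4, 15.3 and 18.3 FPKM in int 3 and 58.8, 59.1 and 58.9 FPKM in int 2 (log2 change -1.74, SE 0.07, adjusted p = 0.00015; 3.19e-05 to 0.00595 over the alternatives). As with Fut2, the 3 int 3 libraries were close to each other. Nxpe4, the next protein-coding gene beside it, had 10.3, 2.72 and 16.3 FPKM in int 3 and 27.1, 26.6 and 26.1 FPKM in int 2 (-1.62, SE 0.53, adjusted p = 0.092). It was below int 2 in every int 3 library, but 2.22 apart on the log2 scale within int 3, where Nxpe2 was 0.25 apart. The ratio of Nxpe2 to Nxpe4 was 1.69, 5.62 and 1.13 in int 3 and 2.17, 2.22 and 2.26 in int 2. Nxpe3 and Nxpe5 were below the filter.

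The promoters of both Nxpe genes show how these neighbours differ in sequence. The window of Nxpe2, chr9:48340849-48341148 on the - strand, has 53.3% G and C and no match. The window of Nxpe4, chr9:48361791-48362090 on the + strand, has 42.3% G and C, and its capitals mark a TATA box on the opposite strand that begins 20 bases before the start.
Nxpe2: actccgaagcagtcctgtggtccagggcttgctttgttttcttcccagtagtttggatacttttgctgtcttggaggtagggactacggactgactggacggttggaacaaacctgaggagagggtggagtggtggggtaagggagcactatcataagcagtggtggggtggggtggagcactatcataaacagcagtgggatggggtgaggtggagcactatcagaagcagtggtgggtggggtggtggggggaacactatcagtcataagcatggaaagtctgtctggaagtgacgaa
Nxpe4: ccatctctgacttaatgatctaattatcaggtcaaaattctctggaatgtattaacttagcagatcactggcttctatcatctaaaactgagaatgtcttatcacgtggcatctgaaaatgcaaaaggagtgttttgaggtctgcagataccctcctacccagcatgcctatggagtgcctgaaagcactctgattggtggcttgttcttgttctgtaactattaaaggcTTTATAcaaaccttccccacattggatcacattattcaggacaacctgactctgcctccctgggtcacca

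The motifs searched on both strands were the STAT dimer site TTCNNNGAA (8.3% of 32851 windows hold it), the interferon response element core (3.44%), the NF-kB site (1.47%), the HNF4 site CAAAGTCCA (0.475%), the CDX site TTTATNG (10.9%), the TATA box TATAAA (13.6%) and the GATA site AGATAA (11.2%). Among the 77 windows of members 5, 1, 0, 1, 4, 3 and 6 held them in that order. No overlap between matches arose in the printed windows, and a missing match says only that these letters are not in the window.

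The members varied in how far int 3-2 and int 3-3 lay apart, over a continuous range. Between these 2 libraries 10 of 57 tested members (17.5%) were over 1 apart on the log2 scale, against 4.56% of all tested genes, a limit chosen after the values were seen. Higher in int 3-2 were B3gnt6, Gcnt3, B4galnt1, Galnt12 and St3gal3. Lower there were B3gnt7, B4galnt3, Nxpe4, St3gal6 and B3gnt5. St3gal3 and B3gnt5 fell outside the naming rule: St3gal3 had 19.1, 26.2 and 12.5 FPKM in int 3 and 17.0, 16.5 and 17.1 FPKM in int 2, and B3gnt5 had 21.6, 12.2 and 27.2 FPKM in int 3 and 15.8, 16.8 and 15.7 FPKM in int 2. Int 3-1 lay between the other 2 for 52 of the 57 tested members (91.2%, against 73.5% of all tested genes). Hoxb13 had the same order, 146, 16.4 and 267 FPKM in int 3, and so did the caudal homeobox factor Cdx2 reversed, 50.5, 89.9 and 17.6 FPKM in int 3 with 37.4 ± 1.09 FPKM in int 2. The part of the sampled position along the large intestine in these differences was not tested.

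**Figure D5:**
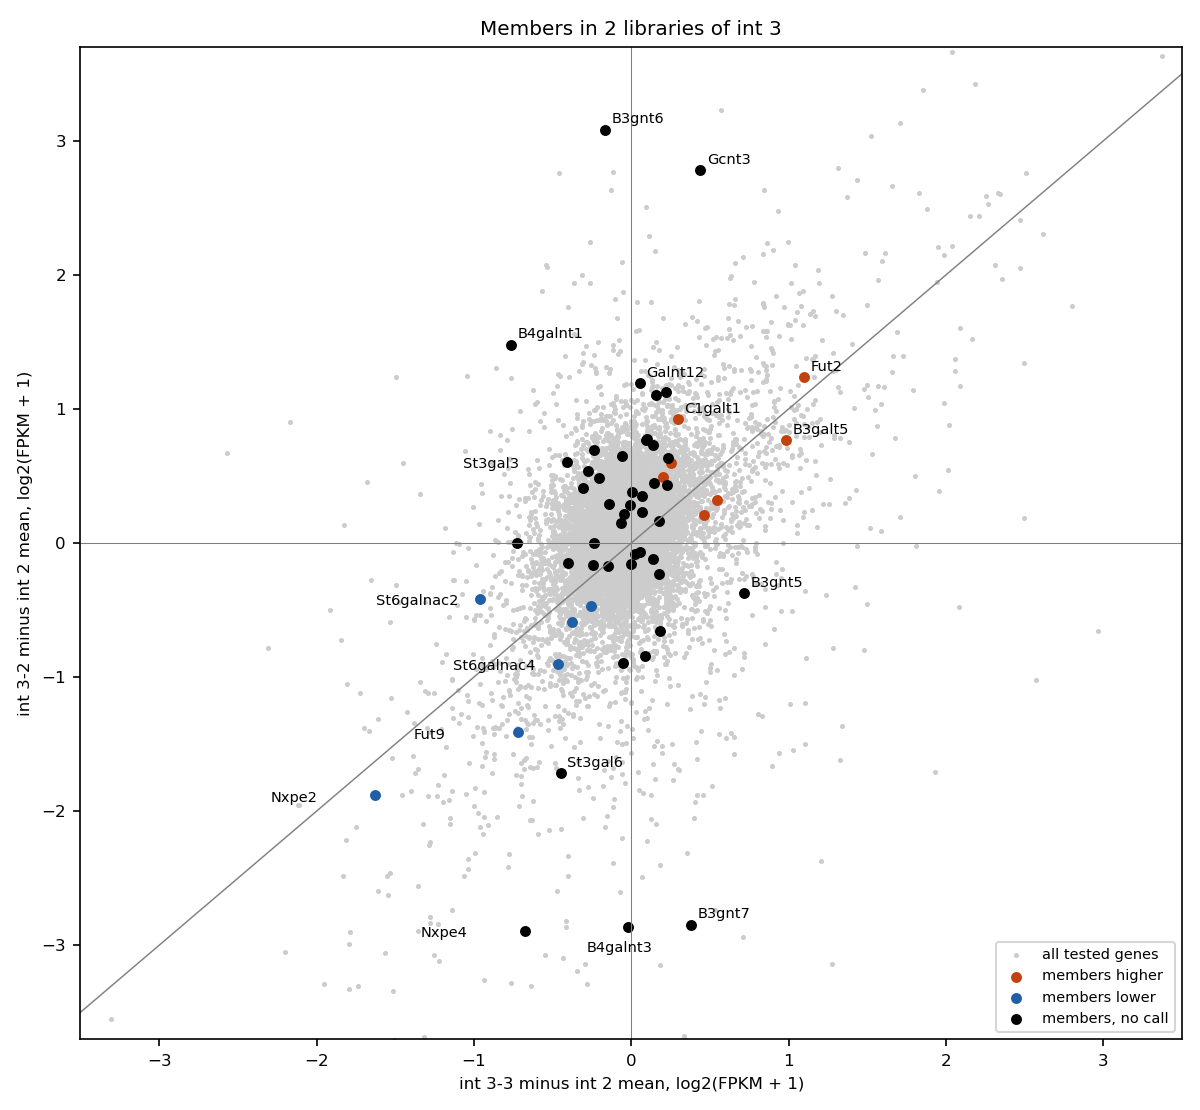
Difference from the int 2 mean on log2(FPKM + 1) in int 3-2 (vertical axis) and int 3-3 (horizontal axis) for all tested genes (grey) and the tested members (coloured by call), with the line of equality; 27 tested genes lie outside the axes. Fut2, B3galt5 and Nxpe2 lie near the line, and B3gnt6, Gcnt3, B4galnt1, B3gnt7, B4galnt3 and Nxpe4 lie far from it.

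The proteins that carry these chains were also uneven. Muc2, the gel-forming mucin of goblet cells, had 274, 467 and 102 FPKM in int 3 and 94.6 ± 1.35 FPKM in int 2 (1.31, adjusted p = 0.14), in the same order as Gcnt3, B3gnt6 and C1galt1. Muc13, a membrane mucin, had 583, 324 and 804 FPKM in int 3 and 471 ± 2.72 FPKM in int 2 (adjusted p = 0.72), in the order of B3gnt3, B3galt5 and B3gnt7. Of 6 tested mucins only Muc1, another membrane mucin, passed, at 5.10, 2.84 and 6.89 FPKM in int 3 and 1.93 ± 0.0945 FPKM in int 2 (0.96, adjusted p = 0.05 after rounding), and 0 passed with voom. Of 9 goblet cell markers 0 passed with limma (4 higher and 1 lower at an unadjusted p under 0.05, and 0 with voom), and their summed level was 6160, 5860 and 6730 FPKM in int 3 and 3650, 3610 and 3640 FPKM in int 2. That sum was carried by Zg16, Tff3, Agr2 and Spink4, and Clca1 ran the other way, at 83.5, 20.8 and 137 FPKM in int 3 and 185 ± 1.53 FPKM in int 2. Of 7 colonocyte markers 3 were lower, namely Aqp8 (-0.97), Slc26a3 (-1.11) and Slc9a3 (-1.5), with adjusted p = 0.013, 0.023 and 0.039. The other 4 did not pass. At an unadjusted p under 0.05 there were 1 higher and 4 lower, and with voom 3 were lower. Ceacam1 ran the other way, at 287, 362 and 218 FPKM in int 3 and 198 ± 3.08 FPKM in int 2 (0.51, adjusted p = 0.1). The share called was 16.7% of tested mucins and 42.9% of colonocyte markers, against 15.3% of all tested genes. The part of goblet cell and colonocyte numbers in the members' values was not tested.

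Sulfation genes showed 2 lower genes and 14 that did not pass among 16 tested of the list of sulfation and sialic acid processing. The share called was 12.5%, against 15.3% of all tested genes. Chst4, which sulfates N-acetylglucosamine in mucin chains, had 29.5, 30.4 and 28.7 FPKM in int 3 and 36.3 ± 0.176 FPKM in int 2 (-0.29, adjusted p = 0.0099). Papss1, which makes the sulfate donor, had 42.4, 39.1 and 45.2 FPKM in int 3 and 55.3 ± 1.52 FPKM in int 2 (-0.38, adjusted p = 0.013). Papss2, the second donor synthase, did not pass, at 57.5, 58.4 and 55.1 FPKM in int 3 and 50.6 ± 0.412 FPKM in int 2 (0.17, adjusted p = 0.052). The median of the list was -0.26.

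Among markers of other cell types the test called 3 of 3 tested plasma cell genes and 3 of 5 T cell genes lower, and 5 of 6 macrophage, 4 of 5 fibroblast and 2 of 2 tested mesothelial genes higher. Smooth muscle had 2 of 6 lower, and endothelium (4 tested), glia and neurons (5 tested) and small intestine (2 tested) had 0 called with limma or voom, and 4, 1 and 0 higher and 0, 0 and 1 lower at an unadjusted p under 0.05. Smooth muscle had 0 called with voom. Over all tested genes 8.64% were called higher and 6.7% lower. Their part in the members' values was not tested.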

How the data were processed

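Libraries of 6 large intestine samples were made from TRIzol RNA (VAHTS kit), according to the labels. Gene values are FPKM as deposited, in a single table; build GRCm39 comes from the submitters' processing notes, and aligner, counter, annotation and strand handling are not given in the sources used here. Columns were tied to samples by title. A gene was fitted when 3 or more of its 6 values reached FPKM 1. limma 3.58.1 (R 4.3.3) was run with a mean trend on log2(FPKM + 1), two-sided, int 3 minus int 2, adjusted by Benjamini-Hochberg over 12525 genes, threshold 0.05. The fit was also run on simulated data with independent libraries and the same spread for all genes of a group. That run cannot show how the fit behaves on these data. Whole fragments were recovered from the FPKM steps for 12379 of 12525 genes (98.8%, relative tolerance 2e-07); intervals and floors from them cover counting error only. Named members were those past the threshold (at most 6 a role), the most abundant of each role, a fixed list of mucin enzymes and the 6 most uneven within int 3; of other lists, at most the 3 with the smallest p, and Muc2, Epcam and Hoxb13. Gcnt2, Gcnt4, Galnt6os, St3gal3, B3gnt5, B4galnt4, the remaining B3galt and B4galt genes and other list genes were named after their values were seen. Members, lists and rules were chosen with earlier results of these data known. Alternatives were a pseudocount of 0.1, other filters and scalings, a replicate block, weights by group and each library left out, and voom on whole fragments. Gene overlaps and neighbours come from annotations of GRCm38. Tables and figures used Python 3.11.15, pandas 2.3.3 and matplotlib 3.10.9.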

Additional observations from a re-analysis of the deposited data

How the results depend on the processing

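Fut2, B3galt5 and Nxpe2 kept direction and call in all 16 alternatives. The counts of higher and lower members stayed within 1.5 times of 7 and 6 with a pseudocount of 0.1, at a mean FPKM of 5 or more, with TPM, median-of-ratios, quantile or epithelial scaling and with voom on whole fragments, an alternative chosen after seeing the data. Without a filter 4 members were higher, with 24866 genes tested (13.2% of members called, against 6.72% of all). The same replicate numbers did not pair the libraries (correlations of deviations from -0.0215 to 0.00407), and with the replicate block 4 members were higher and 3 lower, and 516 and 373 of all genes (12.3% of members called, against 7.1% of all). With weights by group 11 members were higher and 8 lower (33.3% called, against 14.9% of all genes). With 1 library left out, 2 to 25 members were higher and 1 to 13 lower, and 372 to 3124 of all genes higher and 241 to 1789 lower; the lowest counts come with int 3-1 or an int 2 library left out and the highest without int 3-3. At a mean FPKM of 5 or more 496 of all genes were lower, with 7819 genes tested. Of the tested genes named, these turned sign, and none of them was called with limma in the reported fit: Galnt7 (-0.06 without int 3-2, up to 0.16 without int 3-3) and B4galnt1 (-0.03 without int 3-2, up to 1.09 without int 3-3), Fut8 with median-of-ratios (-0.01), quantile (-0.03) and without int 3-3 (-0.02), St6galnac6 with TPM (0.05) and without int 3-2 (0.08, down to -0.12 without int 3-3), Epcam with quantile scaling (0.02), Gne with TPM (0.02), B3galt4 with median-of-ratios (-0.02) and quantile scaling (-0.03), and with single libraries left out St3gal3 (-0.12 to 0.39), B3galt4 (-0.02 to 0.06), Gne (-0.09 to 0.0), Muc13 (-0.12 to 0.54) and Cdx2 (-0.31 to 0.83). Of the 10 called genes named outside the members, Gmds passed in all 16 alternatives and the other 9 in 5 (Muc1) to 12 (Aqp8). TPM moved the median of all tested genes to 0.101, against 0.034 in the reported fit, and called all 13 members. The cause of these differences was not tested. Int 2 varied far less than int 3, which the fit does not model except with weights by group.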
